A study of Mus musculus with 7 samples.

Results

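The p53 tumour suppressor gene Trp53 and 9 of its target genes (Cdkn1a, Mdm2, Ccng1, Eda2r, Aen, Bax, Phlda3, Zmat3 and Trp53inp1) were examined in hepatocytes isolated from mouse liver. The genes were taken by name from an expression table of 12151 genes, and all 10 were in it. The series concerns a role of ALAS1 in silencing by small RNAs. ALAS1 and ALAS2 are the aminolevulinate synthases that start heme synthesis. RNA was sequenced in 4 libraries labelled ALAS1/2-KO and 3 labelled wild-type (WT). In the ALAS1/2-KO group, Cre recombinase was to remove exons 4 and 5 of Alas1, and a siRNA coupled to GalNAc, a sugar that hepatocytes take up, was to lower Alas2. Tamoxifen is given as their treatment, and "non" as that of the WT libraries. Genotype, tamoxifen and siRNA therefore cannot be told apart. The promoter that drives Cre, the age, sex and strain of the mice, any control siRNA in the WT group, and whether each library came from its own mouse are not stated in the labels, so the p-values measure only the spread between libraries.

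p53 is a transcription factor that MDM2, a ubiquitin ligase, keeps scarce in unstressed cells. DNA damage and other stresses lower its turnover, so that the protein accumulates mainly without a change in its mRNA. It binds DNA at a pair of half-sites and raises genes of growth arrest, DNA repair and cell death, together with genes that shut the response down again, Mdm2 among them. In liver, p53 is known for limiting the division of damaged hepatocytes.

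Promoter windows of 8 of the 10 genes were found in the RefSeq promoter table of the mouse build GRCm38.p6, which holds 250 bases before and 50 bases after each transcription start. Each was searched for the p53 half-site, a motif of 10 letters named here only because it allows alternative letters. The motif reads the same on both strands, so a single search covers both. Windows of 6 of these 8 genes held a half-site (Aen, Bax, Ccng1, Cdkn1a, Mdm2 and Trp53), and those of Eda2r and Phlda3 held none. A half-site was present in 9.55% of all 27025 genes that have a window. The 8 genes are Trp53 and genes chosen as p53 targets. This share and those for pairs below are therefore a description and no test. The 250 bases before the start are shown for the 4 genes whose mRNA passed the test described next (Ccng1, Eda2r, Aen and Mdm2), and for Cdkn1a and Bax, which did not pass it. They are written 5′ to 3′ on the strand of the gene, with half-sites in capitals. Aen and Cdkn1a have 2 starts each there. The downstream start of Aen and the upstream start of Cdkn1a are shown.
Ccng1 (chr11:40755287-40755536, minus strand): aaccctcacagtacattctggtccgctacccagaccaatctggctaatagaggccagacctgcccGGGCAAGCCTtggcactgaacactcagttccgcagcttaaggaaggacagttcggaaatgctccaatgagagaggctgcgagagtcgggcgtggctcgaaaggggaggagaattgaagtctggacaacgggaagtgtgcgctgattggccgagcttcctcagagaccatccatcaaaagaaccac
Mdm2 (chr10:117710759-117711008, minus strand): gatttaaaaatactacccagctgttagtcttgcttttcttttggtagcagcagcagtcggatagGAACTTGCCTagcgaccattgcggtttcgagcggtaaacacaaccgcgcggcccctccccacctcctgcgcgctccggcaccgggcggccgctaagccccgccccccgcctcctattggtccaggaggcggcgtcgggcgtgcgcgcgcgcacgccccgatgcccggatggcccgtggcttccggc
Aen (chr7:78895808-78896057, plus strand): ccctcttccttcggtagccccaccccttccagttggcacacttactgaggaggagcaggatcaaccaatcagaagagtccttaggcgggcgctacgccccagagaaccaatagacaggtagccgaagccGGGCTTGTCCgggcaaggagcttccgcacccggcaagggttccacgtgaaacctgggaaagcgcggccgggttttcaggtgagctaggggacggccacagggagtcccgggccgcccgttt
Eda2r (chrX:97377210-97377459, minus strand): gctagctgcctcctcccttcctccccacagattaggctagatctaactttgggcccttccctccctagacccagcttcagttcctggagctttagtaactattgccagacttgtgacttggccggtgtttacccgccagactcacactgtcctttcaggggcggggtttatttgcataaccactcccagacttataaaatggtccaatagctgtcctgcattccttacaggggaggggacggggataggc
Cdkn1a (chr17:29090729-29090978, plus strand): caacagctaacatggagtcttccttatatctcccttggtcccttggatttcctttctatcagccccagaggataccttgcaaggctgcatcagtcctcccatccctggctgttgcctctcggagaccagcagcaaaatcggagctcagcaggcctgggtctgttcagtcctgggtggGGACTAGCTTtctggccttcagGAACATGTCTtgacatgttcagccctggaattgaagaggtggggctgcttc
Bax (chr7:45466899-45467148, minus strand): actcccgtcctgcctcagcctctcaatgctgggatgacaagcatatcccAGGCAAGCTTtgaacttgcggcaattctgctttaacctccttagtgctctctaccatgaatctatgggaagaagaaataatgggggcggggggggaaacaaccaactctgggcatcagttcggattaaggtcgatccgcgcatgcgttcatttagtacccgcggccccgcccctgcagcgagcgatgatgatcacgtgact

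Cdkn1a alone among the 8 genes had a complete pair of half-sites, with 2 half-sites starting 73 and 51 bases before its upstream start and 12 bases between them. Such a pair, with at most 13 bases between the half-sites, was present in 24 of all 32851 windows. The half-site starting at -51 in Cdkn1a was also followed directly by a second one that matched except for 1 letter, so that 19 of 20 letters matched. A pair with 19 of 20 matching letters was present in Ccng1 (-195 to -176, no gap) and in Bax (-212 to -192, gap of 1 base) as well. A pair with 19 or 20 matching letters was present in 1.24% of all genes that have a window. These matches describe the letters in the windows and show neither binding nor its absence.

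**Figure D1:**
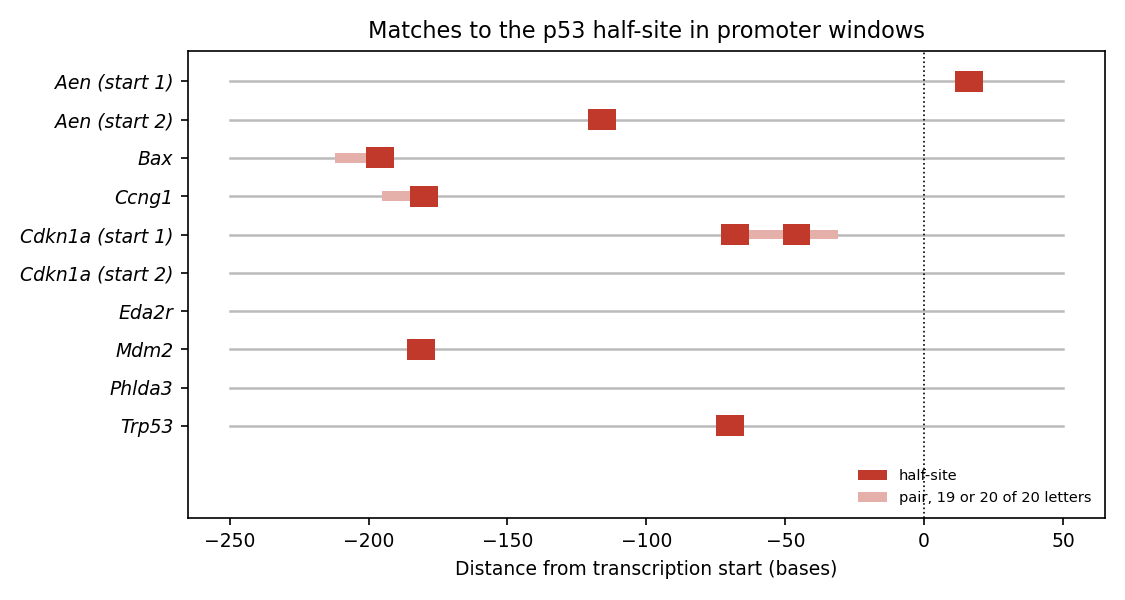
Positions of p53 half-sites (dark bars) and of pairs of half-sites with 19 or 20 of 20 matching letters (pale bars) from 250 bases before to 50 bases after each transcription start, in bases from the start, for the 8 genes with a window. Dark bars are present in 6 of the 8 genes, and the pale bars in Bax, Ccng1 and Cdkn1a.

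Reads recovered from the deposited values came to between 27933939 and 30195635 per library in ALAS1/2-KO and between 22916097 and 34048680 in WT. Values are given as CPM, the reads of a gene relative to the scaled library size. Alas2 stood between 0.198 and 0.800 CPM in ALAS1/2-KO libraries and between 6.65 and 16.9 CPM in WT libraries, and 4 hemoglobin genes of red cells, which also express Alas2, summed to 2.75 to 7.39 CPM in ALAS1/2-KO and 11.3 to 41.3 CPM in WT. Alas1, measured over the whole gene and so no check of the removed exons, averaged 322 ± 31.7 CPM in ALAS1/2-KO and 209 ± 109 CPM in WT (SD, n = 4 and 3). It did not pass the test described below (limma adjusted p = 0.277). Its values were 287 to 361 CPM in ALAS1/2-KO, and 280, 265 and 83.5 CPM in WT replicates 1 to 3. All 8 hepatocyte markers were present in all 7 libraries. Of these, 7 had a positive log2 fold change and Alb fell, to between 49928 and 55979 CPM in ALAS1/2-KO, against 93954 to 100209 CPM in WT (log2 fold change -0.87). Of the 7, 0 passed the test. In 3 of them every ALAS1/2-KO library lay above every WT library, as it did for 11.3% of all genes tested. Of 35 markers of endothelial, Kupffer, stellate, bile duct, B, T and NK cells and neutrophils, 27 were listed. All 27 had a negative log2 fold change (ALAS1/2-KO over WT). Of these 27, 2 passed the test, Spp1 and Cd79a, where 2.19% of all genes tested were lower. At an unadjusted p under 0.05, 12 of the 27 were lower, where 23.7% of all genes tested were past that level in either direction. In 8 of the 27 the ALAS1/2-KO libraries all lay below the WT libraries, as they did for 11.4% of all genes tested. The 4 T and NK cell markers and the bile duct markers Krt19, Epcam and Krt7 were among those not listed. ALAS1/2-KO replicate 1 stood lowest: its 8 Kupffer cell markers summed to 219 CPM, against 648 to 1392 CPM in the other ALAS1/2-KO libraries and 842 to 1152 CPM in WT, and its 6 endothelial markers summed to 54.4 CPM, against 121 to 228 CPM in the other ALAS1/2-KO libraries and 214 to 262 CPM in WT. Mitochondrially encoded genes took 16.8% of its reads, against 25.3% to 27.3% in the other ALAS1/2-KO libraries and 31.9% to 43.2% in WT. In bulk samples, fewer cells of a type and less RNA per cell cannot be told apart.

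Of the 10 genes, 4 rose in ALAS1/2-KO hepatocytes, namely Eda2r, Ccng1, Aen and Mdm2, and 0 fell. The test was limma, a linear model fitted over the 12105 genes that reached 1 CPM in 3 or more libraries, which include all 10 genes. A gene counted as changed at a Benjamini-Hochberg adjusted p under 0.05. By the same test 2.91% of all genes tested were higher in ALAS1/2-KO and 2.19% were lower. The median log2 fold change was 0.48 over the 10 genes and -0.02 over all genes tested. The 10 genes were chosen with earlier results of these data known, so comparisons with all genes are a description and no test. At an unadjusted p under 0.05, 5 of the 10 genes were higher and 0 lower, where 11.8% of all genes were higher. For Eda2r, Ccng1, Aen, Mdm2 and Zmat3 every ALAS1/2-KO library lay above every WT library, as it did for 11.3% of all genes tested, and the groups did not overlap in either direction for 22.7%.

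**Figure D2:**
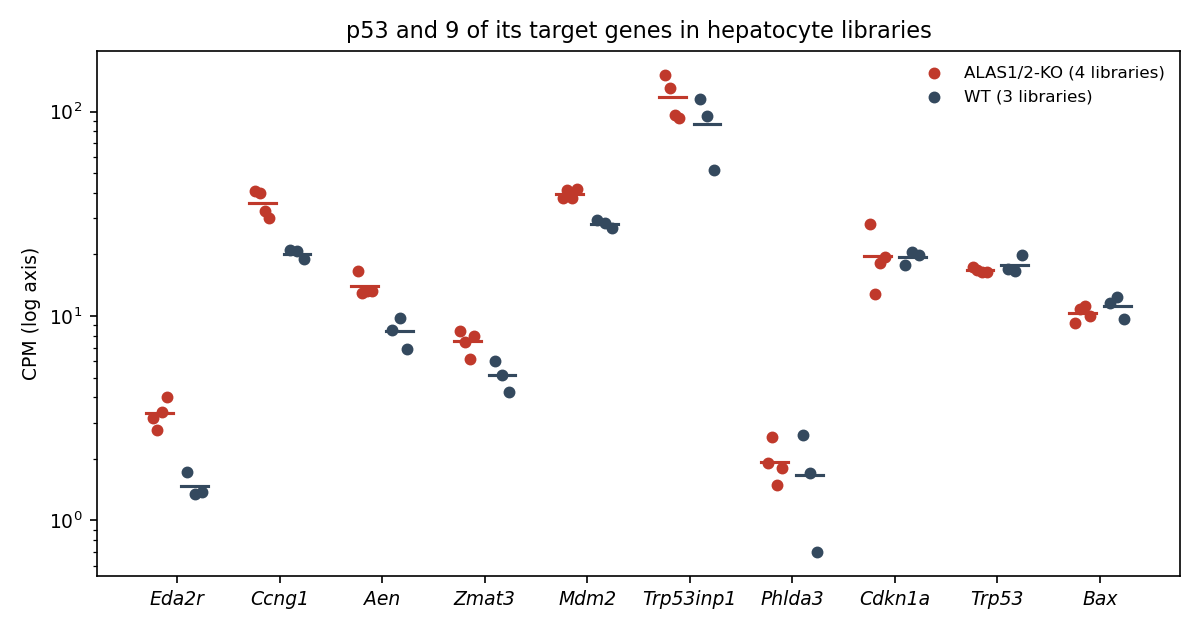
CPM on a log axis for Trp53 and 9 of its target genes, with a point for each ALAS1/2-KO library (red, left of each pair) and each WT library (dark, right) and a bar at the group mean. The groups stand apart for Eda2r, Ccng1, Aen, Zmat3 and Mdm2, and overlap for Trp53inp1, Phlda3, Cdkn1a, Trp53 and Bax.

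Trp53 itself (ENSMUSG00000059552.13, chromosome 11, 69580359 to 69591873, plus strand, mm10 with the GENCODE M21 annotation) did not pass. It stood at 17.4, 16.9, 16.4 and 16.5 CPM in ALAS1/2-KO replicates 1 to 4, against 16.96, 16.6 and 19.9 CPM in WT replicates 1 to 3. The groups overlapped, and WT replicate 3 alone lay above the rest. The log2 fold change was -0.08 (SE 0.10, 95% interval -0.31 to 0.14, limma adjusted p = 0.646, exact permutation p = 0.314). Without WT replicate 3 it was 0.00 to 2 decimals. A processed pseudogene, Trp53-ps, lies on chromosome 17, and how the authors counted reads shared with it is not stated.

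Among the genes that restrain p53, Mdm2 (ENSMUSG00000020184.15, chromosome 10, 117688875 to 117710758, minus strand) rose. It stood at 37.7, 41.4, 37.6 and 41.6 CPM in ALAS1/2-KO, against 29.4, 28.4 and 26.9 CPM in WT. Both groups were tight, and the highest library was 1.11 times the lowest in ALAS1/2-KO and 1.09 times in WT. The rise was 1.4-fold (log2 fold change 0.48, SE 0.09, limma adjusted p = 0.0249). A two-sided exact permutation test, with 35 ways to regroup the libraries, gave p = 0.0286, its smallest possible value here. Ccng1 (ENSMUSG00000020326.7, chromosome 11, 40748552 to 40755311, minus strand) encodes cyclin G1, which recruits a phosphatase that activates MDM2. It stood at 40.8, 39.8, 32.6 and 30.1 CPM in ALAS1/2-KO, against 20.98, 20.7 and 18.9 CPM in WT. Replicates 1 and 2 were the highest of the ALAS1/2-KO libraries, and the lowest ALAS1/2-KO library was still above every WT library. Ccng1 rose 1.76-fold (log2 fold change 0.82, SE 0.13, limma adjusted p = 0.0147, exact permutation p = 0.0286).

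Cdkn1a (ENSMUSG00000023067.14, chromosome 17, 29090976 to 29100727, plus strand) encodes p21, the inhibitor of cyclin-dependent kinases through which p53 halts the cell cycle, and it did not pass. It stood at 28.0, 12.9, 18.1 and 19.5 CPM in ALAS1/2-KO, against 17.8, 20.5 and 19.9 CPM in WT. The ALAS1/2-KO libraries held both the highest and the lowest value, in replicates 1 and 2, and spanned 2.18-fold, against 1.15-fold in WT. The log2 fold change was -0.04 (SE 0.23, 95% interval -0.57 to 0.49, limma adjusted p = 0.94, exact permutation p = 0.8286). It was -0.23 without ALAS1/2-KO replicate 1 and 0.15 without replicate 2. Over the 22 alternatives the adjusted p of Cdkn1a ran from 0.399 to 0.996. An antisense gene model, AC167363.2, covers 7.68% of its exon bases, and without strand information its reads cannot be told from those of Cdkn1a.

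Of the genes linked to cell death, Eda2r and Aen rose and Bax did not pass. Eda2r (ENSMUSG00000034457.10, chromosome X, 97333840 to 97377216, minus strand) encodes a receptor of the tumour necrosis factor family whose ligand is ectodysplasin A2. It was scarce, at 3.17, 2.77, 3.39 and 4.02 CPM in ALAS1/2-KO, or 90 to 122 reads, against 1.72, 1.35 and 1.38 CPM in WT, or 33 to 47 reads. The lowest ALAS1/2-KO library lay above the highest WT library. Eda2r rose 2.19-fold (log2 fold change 1.13, SE 0.22, limma adjusted p = 0.0284, exact permutation p = 0.0286), the largest of the 10 fold changes on the deposited scale. The size depends on the pseudocount at this low level: on the log2(CPM + 5) scale Eda2r stood at 0.36, below Ccng1 (0.69), Aen (0.50), Trp53inp1 (0.45) and Mdm2 (0.42).

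Aen (ENSMUSG00000030609.18, chromosome 7, 78895854 to 78911209, plus strand) encodes a nuclease that enhances apoptosis. It stood at 16.5, 12.9, 13.3 and 13.3 CPM in ALAS1/2-KO, against 8.56, 9.80 and 6.88 CPM in WT. ALAS1/2-KO replicate 1 stood above 3 libraries that were nearly equal, and all 4 lay above WT. Aen rose 1.67-fold (log2 fold change 0.74, SE 0.15, limma adjusted p = 0.0334, exact permutation p = 0.0286). Bax (ENSMUSG00000003873.11, chromosome 7, 45461697 to 45466898, minus strand) encodes a protein that permeabilises the outer mitochondrial membrane. It stood at 9.22, 10.9, 11.2 and 10.03 CPM in ALAS1/2-KO, against 11.5, 12.4 and 9.72 CPM in WT. The groups overlapped, and its log2 fold change was -0.12 (SE 0.13, 95% interval -0.40 to 0.17, limma adjusted p = 0.613, exact permutation p = 0.343). A second gene model on the same strand, Gm45808, shares 12.2% of its exon bases.

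Phlda3 (ENSMUSG00000041801.5, chromosome 1, 135766119 to 135769136, plus strand) encodes a small protein that competes with AKT for membrane lipids. It stood at 1.90, 2.55, 1.497 and 1.81 CPM in ALAS1/2-KO, against 2.61, 1.71 and 0.70 CPM in WT, the last from 24 reads. WT spanned 3.71-fold and enclosed all ALAS1/2-KO libraries, and the log2 fold change of 0.36 (SE 0.42, limma adjusted p = 0.644) became -0.14 without WT replicate 3. Its adjusted p ran from 0.2 to 0.889 over 21 alternatives.

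Trp53inp1 (ENSMUSG00000028211.11, chromosome 4, 11156431 to 11174379, plus strand) encodes a stress-induced nuclear protein that also takes part in autophagy. It stood at 152, 129.9, 96.5 and 93.0 CPM in ALAS1/2-KO, against 115, 95.1 and 51.6 CPM in WT. The groups overlapped, with WT replicate 3 lowest, and the log2 fold change of 0.48 did not pass (SE 0.30, 95% interval -0.21 to 1.17, limma adjusted p = 0.37, exact permutation p = 0.257). Without WT replicate 3 it was 0.14. Zmat3 (ENSMUSG00000027663.12, chromosome 3, 32334792 to 32366014, minus strand) encodes an RNA-binding zinc finger protein. It stood at 8.41, 7.45, 6.17 and 8.01 CPM in ALAS1/2-KO, against 6.002, 5.12 and 4.25 CPM in WT. The groups did not overlap, with ALAS1/2-KO replicate 3 just above WT replicate 1. Its log2 fold change was 0.55 (SE 0.17, 95% interval 0.16 to 0.94) and its unadjusted limma p was 0.011, but it did not pass after adjustment (limma adjusted p = 0.105, exact permutation p = 0.0571). Zmat3 passed in 1 of 22 alternatives, with CPM rescaled to the listed reads, which moved the median of all genes to 0.32. Its limma adjusted p ran from 0.0134 under that scaling to 0.294.

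**Figure D3:**
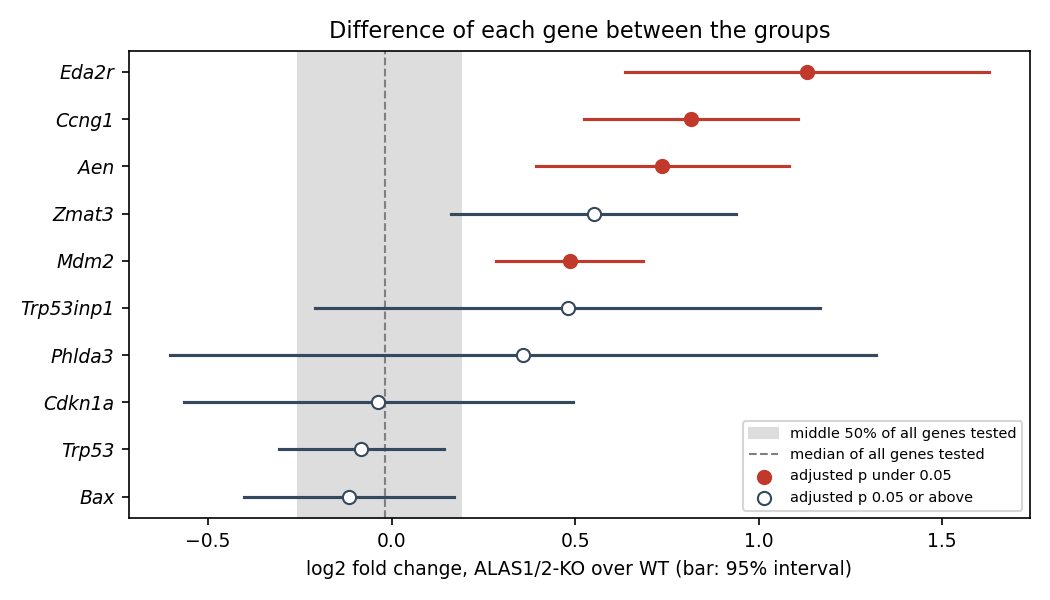
Log2 fold change (ALAS1/2-KO over WT) of each of the 10 genes with its 95% interval from limma, filled where the adjusted p was under 0.05, over the middle 50% (grey band) and the median (dashed line) of all genes tested. The intervals of Eda2r, Ccng1, Aen, Mdm2 and Zmat3 start at 0.64, 0.52, 0.39, 0.28 and 0.16. Those of Trp53inp1, Phlda3, Cdkn1a, Trp53 and Bax span 0.

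Per kilobase of the longest annotated transcript, the order of the levels was led by Trp53inp1 in both groups, at 21.7 ± 5.16 CPM per kb in ALAS1/2-KO and 16.1 ± 5.97 CPM per kb in WT (SD, n = 4 and 3). In ALAS1/2-KO it was followed by Mdm2 (12.6 CPM per kb), Ccng1 (10.2), Cdkn1a (9.43), Bax (9.38), Trp53 (5.13), Aen (2.83), Phlda3 (1.35), Zmat3 (0.963) and Eda2r (0.703). The libraries of Ccng1 and Cdkn1a, of Cdkn1a and Bax, of Phlda3 and Zmat3, and of Zmat3 and Eda2r overlapped, and the other neighbours did not. In WT the order after Trp53inp1 was Bax (10.2 CPM per kb), Cdkn1a (9.33), Mdm2 (8.98), Ccng1 (5.75), Trp53 (5.45), Aen (1.70), Phlda3 (1.17), Zmat3 (0.657) and Eda2r (0.312). There Mdm2 stood apart from Ccng1, Trp53 from Aen, and Zmat3 from Eda2r, while the remaining neighbours overlapped. Mdm2 thus ranked above Bax and Cdkn1a in the ALAS1/2-KO means and below both in the WT means. In single libraries, however, Mdm2 overlapped Cdkn1a in both groups and Bax in WT, and stood apart only from Bax in ALAS1/2-KO.

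The rise of some genes beside the flat values of Cdkn1a and Bax was compared within libraries, as the log2 ratio of each of Eda2r, Ccng1, Aen, Mdm2 and Zmat3 to Cdkn1a and to Bax, a comparison chosen after the values were seen. All 10 ratios were higher on average in ALAS1/2-KO, by 0.52 to 1.248 on the log2 scale. Ccng1 over Bax, for example, stood at 2.14, 1.87, 1.54 and 1.58 in ALAS1/2-KO, against 0.86, 0.74 and 0.96 in WT. For 8 of the 10 ratios the groups did not overlap; the exceptions were Mdm2 and Zmat3 over Cdkn1a. Since the 5 genes were taken because their groups stood apart, and Cdkn1a and Bax because theirs overlapped, the direction of these ratios was largely fixed by that choice, and they are given as a description with no test.

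The libraries differed within each group across the 10 genes. WT replicate 3 had the lowest WT value for 7 of them (Mdm2, Ccng1, Aen, Bax, Phlda3, Zmat3 and Trp53inp1) and the highest for Trp53. ALAS1/2-KO replicate 1, the library with the lowest Kupffer and endothelial marker sums, had the highest ALAS1/2-KO value for 6 (Trp53, Cdkn1a, Ccng1, Aen, Zmat3 and Trp53inp1). Without ALAS1/2-KO replicates 1 and 2 together, Eda2r, Ccng1, Aen and Mdm2 all still passed (limma adjusted p = 0.0136, 0.0112, 0.0369 and 0.0309). With a score of the 27 markers of other cells as a covariate, Eda2r, Ccng1 and Mdm2 passed (limma adjusted p = 0.025, 0.0266 and 0.041) and Aen did not (log2 fold change 0.54, limma adjusted p = 0.0886). That score was lower in every ALAS1/2-KO library (-1.78 to 0.35) than in every WT library (0.39 to 0.79). The score and the groups are therefore partly confounded, and the fit cannot fully separate them.

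The calls depended on which libraries were included. Without ALAS1/2-KO replicate 1 all 4 genes passed. Without ALAS1/2-KO replicate 2 Ccng1 and Eda2r passed, without ALAS1/2-KO replicate 3 Ccng1 and Mdm2, and without ALAS1/2-KO replicate 4, WT replicate 1 or WT replicate 3 Ccng1 alone. Without WT replicate 2 none of the 4 passed (limma adjusted p = 0.128 for Eda2r, 0.0757 for Ccng1, 0.0756 for Aen and 0.118 for Mdm2), with log2 fold changes of 1.07, 0.83, 0.85 and 0.49, and the count over all genes was 100, against 617 with all libraries. Over the 22 alternatives (21 for Eda2r), the adjusted p ran from 0.00271 to 0.0757 for Ccng1, from 0.00322 to 0.132 for Mdm2, from 0.00444 to 0.142 for Eda2r and from 0.00385 to 0.123 for Aen, with a positive log2 fold change in all of them. Rescaling CPM to the sum of the listed reads moved the median of all genes to 0.32. It turned the log2 fold changes of Trp53, Cdkn1a and Bax to 0.25, 0.30 and 0.22, which were -0.06, -0.02 and -0.10 relative to that median, where Ccng1, Mdm2, Eda2r and Aen stood at 0.83, 0.50, 1.14 and 0.76. Of the 617 genes called, 57.1% were higher in ALAS1/2-KO, against 92.6% under that scaling and 42.3% when the 20 most abundant genes and those of the mitochondrial genome were kept out of the scaling.

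**Figure D4:**
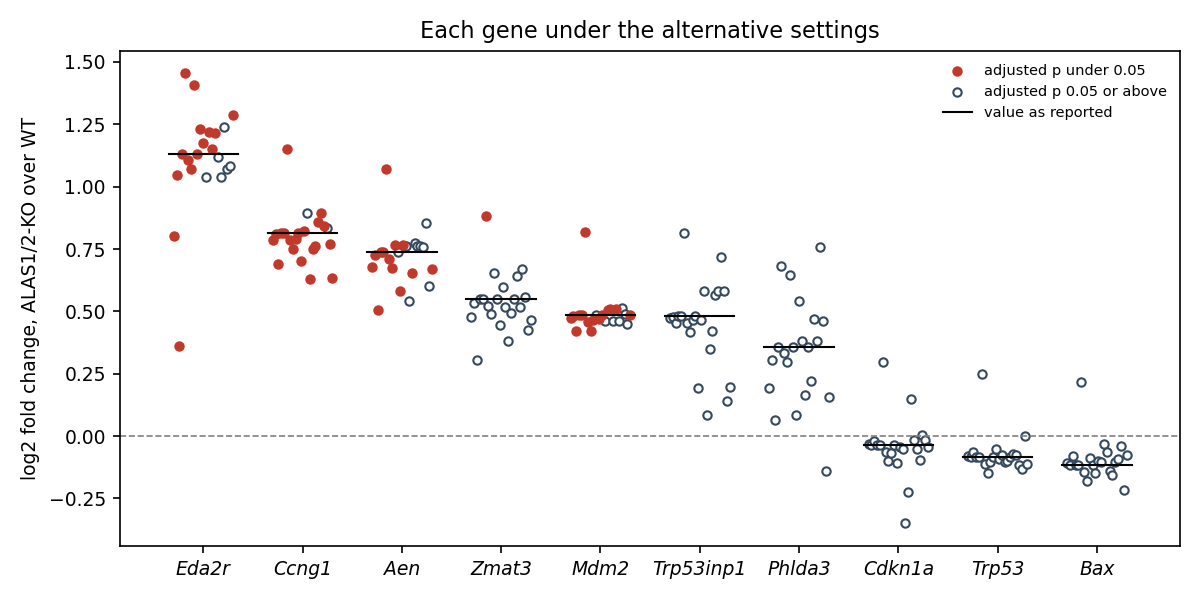
Log2 fold change (ALAS1/2-KO over WT) of each of the 10 genes under each alternative setting, filled where the adjusted p was under 0.05, with a line at the value as reported. Eda2r, Ccng1, Aen, Zmat3, Mdm2 and Trp53inp1 are above 0 under all settings drawn. Phlda3, Cdkn1a, Trp53 and Bax lie on both sides of 0.

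Beyond the 10 genes, 110 further genes of the pathway were tested in 6 lists of p53 targets, p53 regulators and cell cycle genes. Of these, 2 rose and 3 fell, or 4.55%, where 5.10% of all genes tested changed in either direction. In growth arrest and checkpoint targets, 1 of 8 changed: Plk2, a polo-like kinase, fell to 7.72 ± 1.199 CPM in ALAS1/2-KO, against 12.99 ± 2.07 CPM in WT (SD, n = 4 and 3, log2 fold change -0.75, limma adjusted p = 0.0396). Of 17 cell death targets limma called 0, with 2 higher and 1 lower at an unadjusted p under 0.05, and their median log2 fold change was -0.15. Voom, the form of limma for counts, run on the recovered reads, called 1 of them, Trp53i11, which is named here after its values were seen (log2 fold change -1.56, limma adjusted p = 0.0789 on the deposited values). The most abundant were Ei24, at 91.5 ± 11.8 CPM in ALAS1/2-KO and 104 ± 7.56 CPM in WT, and Perp, a membrane protein of cell junctions, at 88.6 ± 2.86 CPM in ALAS1/2-KO and 86.2 ± 4.37 CPM in WT. In either direction, 23.7% of all genes tested had an unadjusted p under 0.05. Of 13 DNA repair and nucleotide supply genes limma and voom also called 0, with 2 higher and 1 lower at that level. There Pcna, the replication clamp, stood at 17.2 ± 2.37 CPM in ALAS1/2-KO and 23.3 ± 2.46 CPM in WT (limma adjusted p = 0.102), and Ercc5, a repair nuclease, at 19.4 ± 1.02 CPM in ALAS1/2-KO and 15.9 ± 0.31 CPM in WT (limma adjusted p = 0.111).

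Among 14 metabolic and redox targets, Ephx1 rose and Gpx1 fell. Ephx1, the microsomal epoxide hydrolase of drug metabolism, stood at 448 ± 75.8 CPM in ALAS1/2-KO and 174 ± 33.5 CPM in WT (log2 fold change 1.37, limma adjusted p = 0.00551), and passed in all 22 alternatives. Gpx1, a selenium-dependent glutathione peroxidase, stood at 604 ± 52.5 CPM in ALAS1/2-KO and 1005 ± 147 CPM in WT (log2 fold change -0.73, limma adjusted p = 0.0252). Of 27 p53 regulators 1 rose, Mdm4, a relative of MDM2 that blocks p53 activity. Mdm4 stood at 73.7, 73.5, 55.4 and 68.8 CPM in ALAS1/2-KO, against 43.1, 42.8 and 50.2 CPM in WT, with no overlap between the groups (log2 fold change 0.57, limma adjusted p = 0.0395, exact permutation p = 0.0571). Mdm4 passed in 1 of the 7 fits without a library, Plk2 in 2 and Gpx1 in 3. With the score of other-cell markers as a covariate, Mdm4 and Plk2 did not pass (limma adjusted p = 0.115 and 0.112), over a range of 0.00964 to 0.184 and 0.0136 to 0.184 across their alternatives.

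The list of cell cycle genes, many of which p21 represses through the DREAM complex, had 1 of 31 called. Mcm2, a subunit of the replicative helicase, fell to 3.24 ± 0.70 CPM in ALAS1/2-KO, against 6.18 ± 1.03 CPM in WT (log2 fold change -0.93, limma adjusted p = 0.0473), and passed in none of the 7 fits without a library. The median log2 fold change of the list was -0.59, with 24 of 31 genes negative. At an unadjusted p under 0.05, 14 were lower and 2 higher, where 23.7% of all genes tested were past that level in either direction. In 11 the ALAS1/2-KO libraries all lay below the WT libraries, as they did for 11.4% of all genes tested. The mean of the list relative to WT was -0.56, -0.55, -0.38 and -0.16 on the log2 scale in ALAS1/2-KO replicates 1 to 4, in which the score of other-cell markers was -1.78, -0.38, 0.35 and 0.04, against 0.59, 0.39 and 0.79 in WT. Mcm2 was no longer called once that score entered the fit as a covariate (limma adjusted p = 0.112). Its log2 fold change was then -0.75. Score and group are partly confounded in that fit, and the part of these markers in the list as a whole was not tested.

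**Figure D5:**
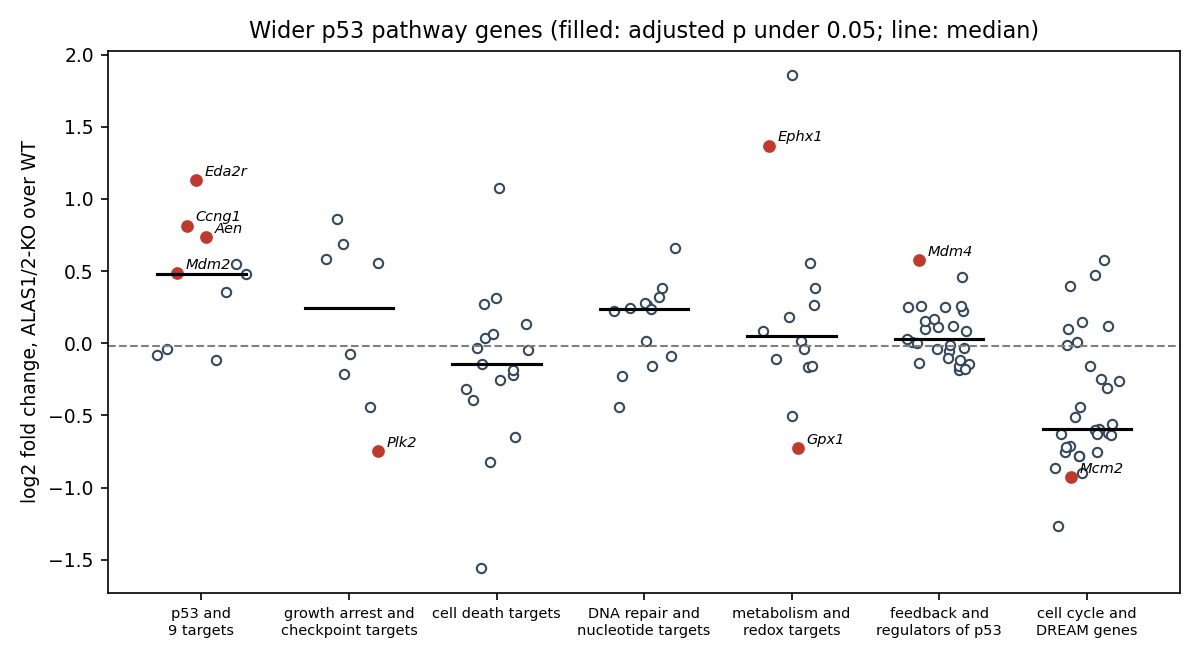
Log2 fold change (ALAS1/2-KO over WT) of Trp53 and 9 targets and of 6 further lists, with a point for each gene, filled and named where the adjusted p was under 0.05, a bar at the median of each list and a dashed line at the median of all genes tested. The medians run from -0.59 for the cell cycle list to 0.48 for the 10 genes.

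Genes that respond to cell isolation and time of day were read beside these. Of 18 immediate early and dissociation response genes limma and voom called 0. At an unadjusted p under 0.05, 2 were higher and 2 lower, where 23.7% of all genes tested were past that level in either direction, and the median log2 fold change was 0.13. Zfp36 stood at 425 ± 111 CPM in ALAS1/2-KO and 324 ± 52.4 CPM in WT, and Egr1 at 421 ± 86.6 CPM in ALAS1/2-KO and 328 ± 63.2 CPM in WT. Of 17 core clock genes 3 rose and 1 fell, where 5.10% of all genes tested changed. At an unadjusted p under 0.05, 10 were higher, where 11.8% of all genes were, and in 9 every ALAS1/2-KO library lay above every WT library, where 11.3% of all genes did. At that level 2 were lower, and in 1 every ALAS1/2-KO library lay below every WT library, where 11.4% of all genes did. Voom called 5 of the 17, and 634 of all 12105 genes tested. The median log2 fold change of the clock genes was 0.72, above the 0.48 of the p53 genes. Per2 was among those that rose, at 29.4 ± 7.07 CPM in ALAS1/2-KO and 9.36 ± 4.83 CPM in WT (limma adjusted p = 0.0377), as was Bhlhe40. Nfil3 fell to 11.2 ± 1.83 CPM in ALAS1/2-KO, against 18.7 ± 1.82 CPM in WT. Per2 and Bhlhe40 passed in 2 of the 7 fits without a library and Nfil3 in 1, and with the score of other-cell markers as a covariate Per2 and Bhlhe40 did not pass (limma adjusted p = 0.0852 and 0.112, over ranges of 0.00463 to 0.154 and 0.00892 to 0.166 across their alternatives). The part of the clock in the values of the 10 genes was not tested.

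By the Pearson correlation of log2 CPM over the 7 libraries with the mean standardised profile of the 10 genes, the most alike of 8781 other genes averaging 5 CPM or more were Dnaja2, Lman2, Grik5, Necap1 and Echdc2 (0.989, 0.989, 0.988, 0.984 and 0.981). The libraries fall into the 2 groups compared, so these values partly restate the group difference and are a description. None of these 5 genes passed limma, with log2 fold changes from 0.16 to 0.36.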

How the data were processed

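RNA from isolated hepatocytes (1 µg, TruSeq RNA kit version 2) was sequenced in 4 ALAS1/2-KO and 3 WT libraries, per the labels. Reads were handled with cutadapt and HISAT2 on mm10, per the submitters' processing notes. The counter, annotation and strand handling are not stated. The authors deposited log2 CPM values with a small prior and scaled library sizes, as the values show. Whole reads were recovered for 100% of the values within 0.01 reads (1e-06 of the count for large counts), and 1 read was worth 0.0293 to 0.0522 CPM. CPM was the deposited value taken off the log2 scale, less the prior, read as the smallest such value (0.0676 CPM). The deposited values were tested in limma (version 3.58.1, R version 4.3.3), with the variance trended on expression and robustly moderated, two-sided, adjusted by Benjamini-Hochberg over 12105 genes. The same fit was run on simulated data as well, and no result here rests on that run. Single genes were also given an exact permutation test over libraries. Gene positions and lengths come from the GENCODE annotation of mm10. The 10 genes and all lists were chosen with earlier results of these data known. Beyond the 10, the text names up to 4 called genes per list, otherwise the 2 most abundant, and the 5 genes with the most similar profile. 1 gene that this rule selects is not reported here. Alternatives covered pseudocount, filter, scaling, variance model, replicate block, a marker covariate and left-out libraries.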

Additional observations from a re-analysis of the deposited data

Results flagged for a closer look

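Aen in ALAS1/2-KO replicate 1 stood at 16.5 CPM, far from the 12.9 to 13.3 CPM of the other 3 ALAS1/2-KO libraries. Its gap to the nearest of them was 0.878 of the range of the group, above Dixon's critical value for 4 samples. It was the only such value among 25 named genes tested. Chance gives such a value in about 1 of 20 genes, so 1 among 25 is about what chance gives.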

How the results depend on the processing

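The 4 genes that rose numbered 2 (Ccng1 and Eda2r) with limma without an intensity trend, and between 0 and 4 when a single library was left out. With CPM rescaled to the listed reads they numbered 5, Zmat3 being added. None of the 10 genes fell under any alternative run. The genes called over all 12105 numbered 617, against 2735 with CPM rescaled to the listed reads, 306 without the trend, 2001 with array weights, 1130 without ALAS1/2-KO replicates 1 and 2 together, and 100 to 802 without a single library. The 5 genes called in the 6 further lists became 18, 2 and 24 under the first 3 of these settings, and 1 to 5 without a single library. With the replicate number as a block, these counts were 0 of the 10 genes, 72 of all genes and 1 of the further genes. Deviations of same-numbered libraries from their group means had correlations of -0.03, 0.05 and 0.18. Those of other pairs ran from -0.33 to 0.36. So few pairs cannot show whether the numbers pair the libraries, and the labels give replicate numbers only. Signs turned with CPM rescaled to the listed reads for Trp53 (0.25), Cdkn1a (0.30), Bax (0.22) and Ei24 (0.15), and for Perp when scaled without the 20 most abundant and mitochondrial genes (-0.025). With single libraries left out, Cdkn1a ran from -0.23 to 0.15 and Phlda3 from -0.14 to 0.76. The causes were not tested. Depth limits Eda2r and Phlda3 most, which rest on 33 to 122 and 24 to 83 reads per library.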
